A study of Mus musculus with 4 samples.

Results

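Agrp, Pomc, Cartpt, Ghrh, Kiss1, Gal, Trh and Crh, 8 genes of feeding and releasing-hormone peptides, were looked up by symbol among the 19465 genes of the matrices. A row was found for 7 of them, and Kiss1 was not analysed here. RNA was profiled over coronal, formalin-fixed and paraffin-embedded brain sections with the Visium assay, in which pairs of probes that bind a transcript side by side are ligated and counted as unique molecular identifiers (UMIs) at barcoded spots. A spot covers a small patch of tissue and can hold several cells. The sections came from wild-type male C57BL/6J pups at postnatal day 21, whose mothers ate a diet with folic acid at 2 mg/kg (MF, 2 sections) or 20 mg/kg (HF, 2 sections) from 2 weeks before mating through pregnancy and lactation. The same strain, sex and age were shared by both groups, the diet was the mothers', and the sections were described as biological replicates with no litter named. In both groups the mothers were 8 to 12 weeks old when assigned to a diet per the study's methods, and 8 weeks old per its results.

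The hypothalamus steers feeding and, through the pituitary gland, hormone release. In its arcuate nucleus, at the base beside the third ventricle, neurons that make agouti-related peptide promote feeding and neurons that make proopiomelanocortin restrain it, while further hypothalamic neurons make the releasing hormones that reach the pituitary by way of the median eminence. Several of the same peptides are also made elsewhere in the brain, where they act as transmitters between neurons.

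The depth was 90096877, 42422997, 34982061 and 42506921 UMIs in MF replicate 1, MF replicate 2, HF replicate 1 and HF replicate 2, over 3598, 3314, 3197 and 3343 spots kept. Values are given in this order of sections throughout, as CPM, the UMIs of a gene scaled to an equal total of UMIs over the same spots. The spots fell into 22 clusters made without the peptide genes, and 3 clusters led by hypothalamic genes such as Dlk1, Baiap3 and Arhgap36 were joined as the hypothalamic area, with 659, 578, 547 and 562 spots. CPM values were compared between areas and sections within a gene and not between genes, because probes of different genes need not bind equally well. At the level of a section or area, fewer cells that make a peptide and less of its RNA per cell cannot be told apart.

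HF replicate 2 stood apart in genes that mark front to back levels of the hypothalamus. Its vasopressin (Avp) and oxytocin (Oxt) levels were 469 and 638 CPM, against at most 11.3 CPM of either gene in the other sections. Hcrt and Pmch, the orexin and melanin-concentrating hormone genes of the lateral hypothalamus, were at 0.235 and 0.706 CPM there, against at least 63.8 and 321 CPM. Rax, a gene of the tanycytes that line the base of the third ventricle, had 0 UMIs in HF replicate 2, which allows up to 0.0706 CPM, against 1.23 to 1.86 CPM. The other 4 arcuate markers were above 0 in all sections, and all but Six6 were lowest in HF replicate 2. Nr5a2 was at 0.511, 0.589, 0.715 and 0.141 CPM, and Tbx3 at 4.28, 3.84, 3.60 and 2.59 CPM. Six6 was at 1.18, 1.30, 0.886 and 1.72 CPM. Prlr, at 12.2, 12.9, 13.9 and 10.5 CPM, made up most of the arcuate sum given next. Summed over marker lists, the paraventricular and supraoptic genes were at 4.43, 8.09, 13.9 and 1113 CPM, and those of the arcuate nucleus and median eminence at 19.4, 20.5, 20.5 and 14.9 CPM. No source used here gives the level of a section, and in HF replicate 2 the level and the diet cannot be told apart. For the peptide genes the comparison of the diets is therefore given with and without it. The other sections were not alike in all such genes either. Pmch was at 688, 497, 321 and 0.706 CPM. Nr5a1, of the list for the ventromedial nucleus, was at 1.81, 0.566, 0.372 and 0.0706 CPM, while that list summed to 46.8, 41.7, 44.9 and 34.0 CPM. Leaving out HF replicate 2 thus need not leave sections of the same level.

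Agrp was concentrated in a small ventral patch in 3 sections and was nearly missing from HF replicate 2. Agrp, at chromosome 8 from 105566698 to 105637393 on the minus strand (GRCm38), encodes the agouti-related peptide, which blocks melanocortin receptors. Its UMIs numbered 1524, 918, 772 and 15, or 16.9, 21.6, 22.1 and 0.353 CPM over the whole section. In the hypothalamic area the level was 78.0, 76.5, 91.3 and 0.551 CPM. The first 3 sections lay close together and HF replicate 2 lay far lower, so the MF values fell between the 2 HF values. The spot with most Agrp held 209, 85, 75 and 1 UMIs, and in the first 3 sections only 10, 9 and 13 spots were needed to reach 50% of all Agrp UMIs.

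Distance from the patch shows how sharply Agrp was placed. The highest smoothed level of the hypothalamic area lay 0.85, 0.80 and 1.60 mm from the medial edge of the tissue and 0.173 mm above its ventral edge in MF replicate 1, MF replicate 2 and HF replicate 1. Within 0.25 mm of each section's own highest point the level was 1128, 1286 and 1545 CPM, and at 4 to 6 mm it was 1.34, 1.82 and 0.769 CPM. HF replicate 1 had both the highest inner and the lowest outer value of the 3. A share of 67.8%, 74.9% and 70.7% of Agrp UMIs lay within 0.5 mm of the highest hypothalamic point. In MF replicate 1, 2 of the 19 array positions at the Agrp peak were marked as lying outside the tissue in the deposited positions and carry no values.

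**Figure D1:**
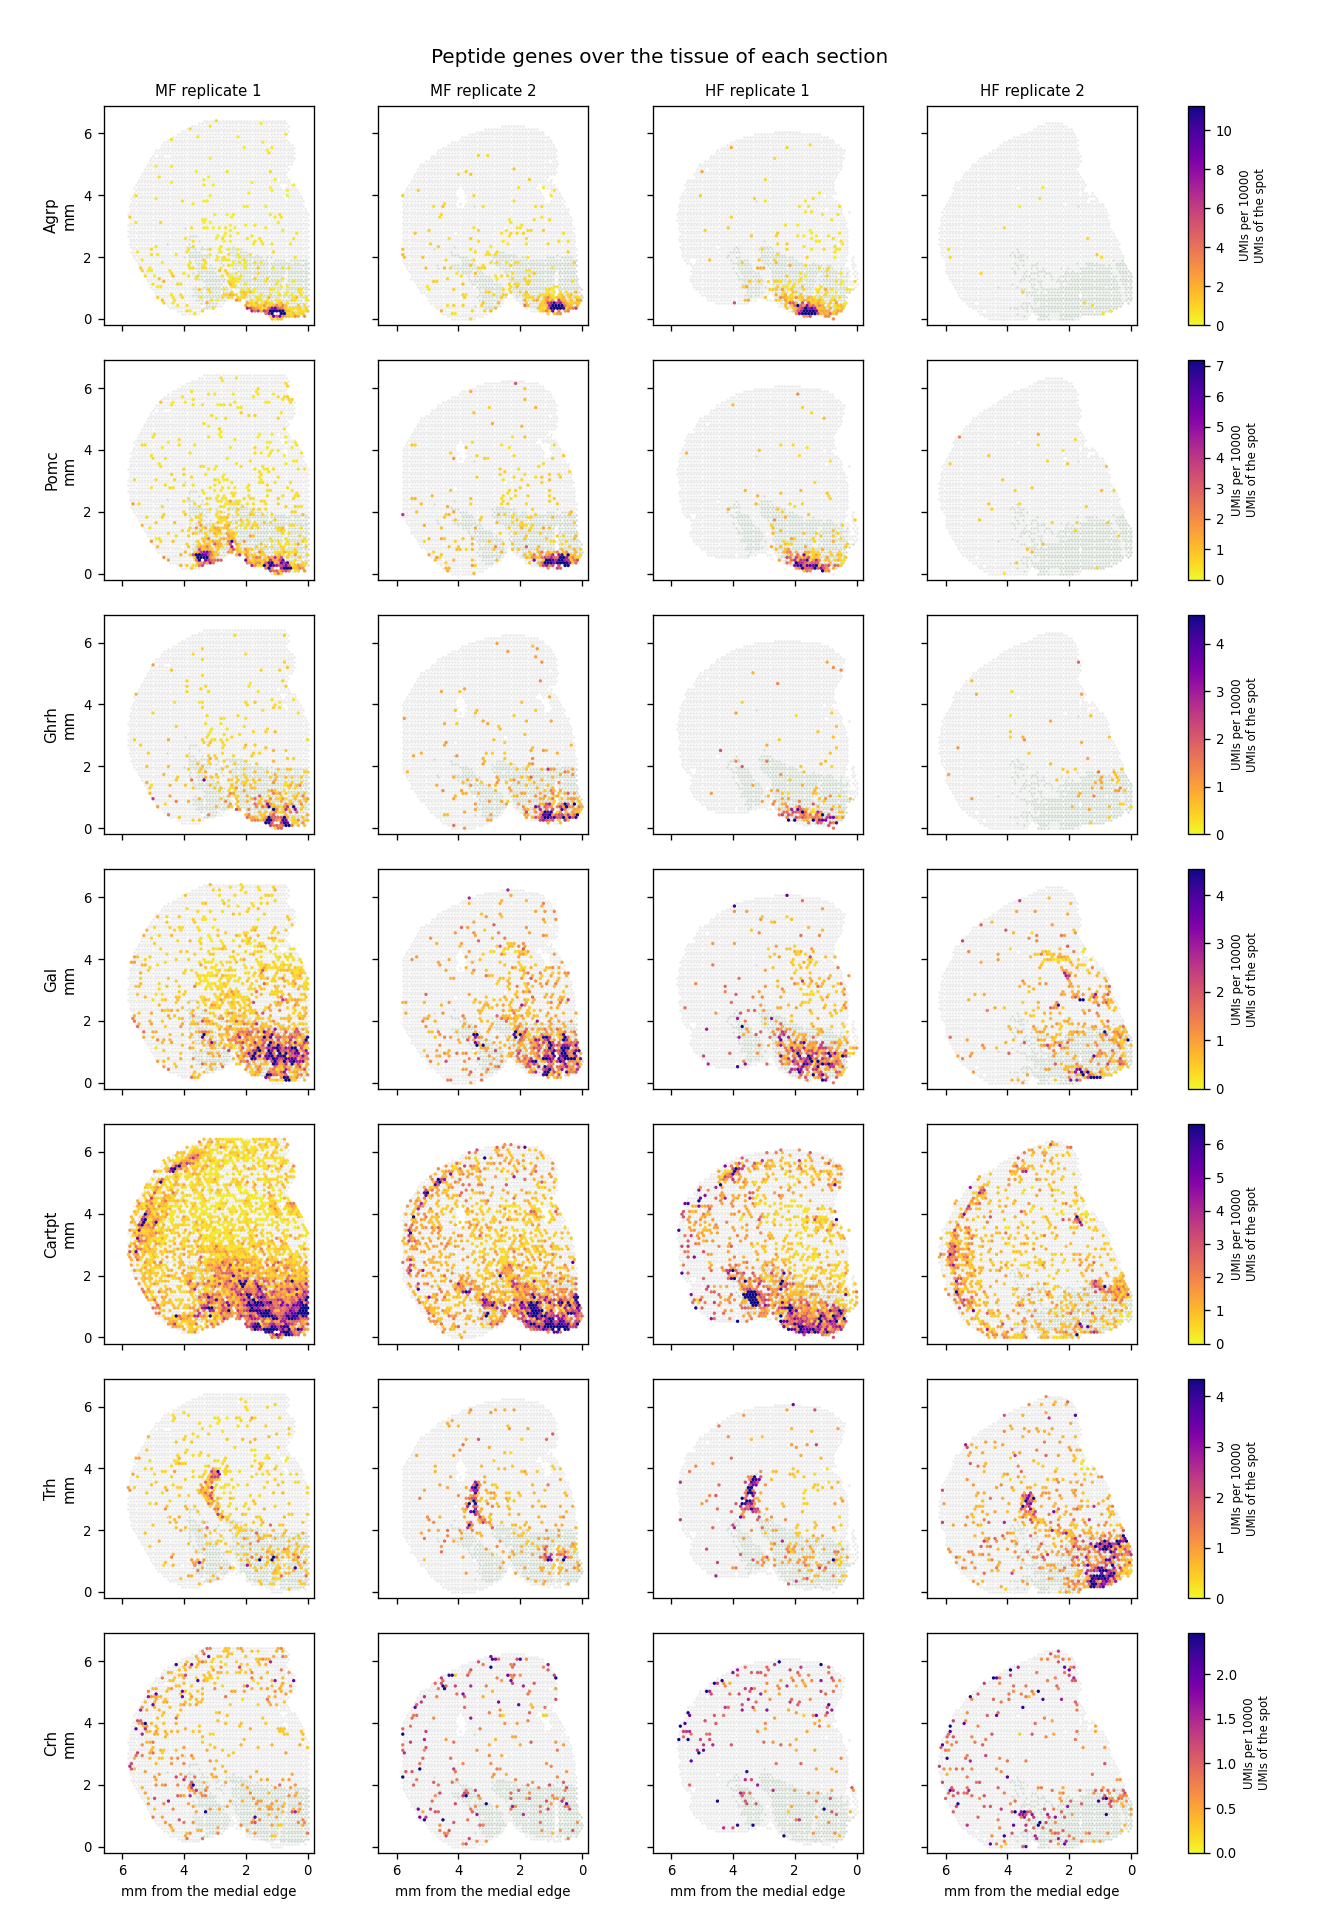
Each panel is one section (columns) and one gene (rows). Points are spots, placed in mm from the medial edge (horizontal) and from the ventral edge (vertical), with spots without a UMI of the gene in grey, the hypothalamic area in greenish grey, and colour giving UMIs of the gene per 10000 UMIs of the spot, capped at the 97th percentile of the gene's spots with a UMI. Agrp, Pomc and Ghrh sit in a ventral patch in 3 sections and are sparse in HF replicate 2. Pomc has a further lateral patch in MF replicate 1, Trh forms an arc in all 4 sections, and Cartpt and Crh reach over the cortex.

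Outside the hypothalamic area, Agrp was at 32.5, 30, 27.2 and 0.320 CPM within 0.5 mm of it. The meningeal area had 102, 54.3 and 122 CPM, and the ependymal and choroid plexus area 103, 308 and 45.0 CPM, in the first 3 sections. These narrow areas run along the ventral patch, and their spots can hold tissue from both sides of a border. Both had 0 UMIs in HF replicate 2, which allows up to 2.45 and 3.82 CPM. Within the second area, the ependymal cluster had 218, 544 and 88.9 CPM in the first 3 sections. The choroid plexus cluster had only 0, 4.44 and 0 CPM there. More than 0.5 mm from the hypothalamic area, Agrp was at 1.75, 2.34, 1.81 and 0.309 CPM. In the cortex, which is not a known place of Agrp neurons, it was at 0.954, 0.871, 0.712 and 0.283 CPM, from 23, 7, 5 and 3 UMIs, with exact Poisson 95% intervals that overlap between all 4 sections and cover counting error only. Thinned to 5000 UMIs a spot, which left out 9, 98, 510 and 125 shallower spots, 11.2%, 10.6% and 17.3% of hypothalamic spots of the first 3 sections held an Agrp UMI, against 0.595%, 0.142% and 0.30% of cortical spots. Without thinning these shares were 24.3%, 19.9% and 25.8% against 2.50%, 0.996% and 0.736%, and hypothalamic spots were ahead on either scale.

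Pomc lay over the same ventral patch as Agrp in 3 sections and took more spots. Pomc, at chromosome 12 from 3954951 to 3960642 on the plus strand, encodes proopiomelanocortin, the precursor of adrenocorticotropin, beta-endorphin and the melanocortins. Its UMIs numbered 2074, 729, 351 and 31, or 23.0, 17.2, 10.0 and 0.729 CPM over the section, and the hypothalamic level was 101, 66.2, 43.0 and 0.827 CPM. Both HF sections lay below both MF sections, and HF replicate 2 lay far below HF replicate 1. In the first 3 sections 21, 20 and 29 spots held 50% of the Pomc UMIs. Agrp and Pomc were found together in 84, 57 and 68 spots of the hypothalamic area of these sections, and in 0 of the 562 spots of HF replicate 2.

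The coding sequence of Pomc repeats the core of the melanocortins. The line printed here holds a stretch of the last coding exon of Pomc (GENCODE vM21 positions on GRCm38, chr12:3960109-3960198, plus strand, codons 117 to 146 of 235), shown because it holds 1 of the 3 copies of the melanocortin core, the residues through which melanocortins act on the receptors that Agrp blocks. Capitals mark the codons of that core, His-Phe-Arg-Trp.
Pomc coding stretch: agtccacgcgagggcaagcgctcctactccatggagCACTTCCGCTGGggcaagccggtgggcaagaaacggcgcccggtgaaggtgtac

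MF replicate 1 held a second, lateral Pomc patch that no other section had. Its centre lay 2.62 mm from the Agrp peak, its highest spot held 412 Pomc UMIs among 23971 UMIs, and 77 spots within 0.5 mm held 794 of the 2074 Pomc UMIs of the section (38.3%), at 659 CPM. The pituitary hormone genes Gh and Prl, looked up after the patch had been seen, had 216 of their 515 and 34 of their 69 UMIs of that section in it, while over the other 3 sections Gh had 0, 2 and 0 UMIs and Prl 0, 1 and 3. The other pituitary genes looked up, Cga and Tshb, had 5 of 358 and 1 of 34 UMIs in the patch, and Agrp had 15 of 1524. Over whole sections Cga had 358, 173, 190 and 3 UMIs, so it was low where Agrp was low. Their part in the Pomc level was not tested. Without the patch the hypothalamic Pomc level of the MF sections was 62.9 ± 4.63 CPM (SD, n = 2), which is still above the 43.0 and 0.827 CPM of the HF sections.

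Within the hypothalamic area, Pomc was at 66.3, 84.2, 48.6 and 0.633 CPM in the medial clusters and at 227, 5.22, 1.37 and 2.13 CPM in the lateral one. Beyond 0.5 mm from the area it was at 2.75, 2.81, 0.708 and 0.618 CPM, and in the cortex at 1.87, 1.49, 0.712 and 0.283 CPM. The olfactory cortex and amygdala area had 51.8 CPM in MF replicate 1, where the lateral patch reached into it, and 7.20, 0 and 0.494 CPM in the other sections.

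**Figure D2:**
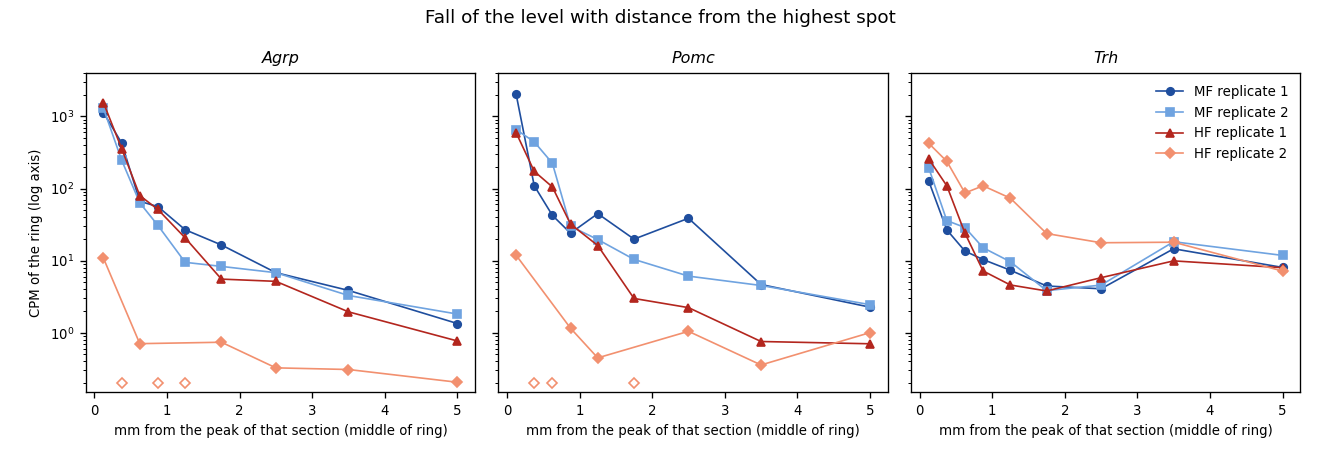
Level of Agrp, Pomc and Trh (CPM, log axis) in rings around the highest smoothed point of that gene in each section, against the middle of the ring in mm; open symbols mark rings with 0 UMIs, drawn at 0.2. Because each centre is the gene's own highest point, a high inner ring is in part set by that choice. Agrp falls from at least 1128 CPM to at most 1.82 CPM in the first 3 sections. In HF replicate 2 its first and last rings hold 2 UMIs each (10.8 and 0.206 CPM), so no fall can be read there. Pomc of MF replicate 1 is higher again, at 38.7 CPM, 2 to 3 mm from its lateral peak. Trh reaches its highest ring value, 424 CPM, in HF replicate 2.

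Ghrh, at chromosome 2 from 157329497 to 157347506 on the minus strand, encodes growth hormone-releasing hormone and shared the ventral patch. Its UMIs numbered 789, 491, 190 and 56, or 8.76, 11.6, 5.43 and 1.32 CPM over the section. The hypothalamic level was 37.5, 47.3, 21.3 and 3.44 CPM, so both HF sections lay below both MF sections. In contrast to Agrp and Pomc, some Ghrh remained in the hypothalamic area of HF replicate 2, where 25 UMIs gave 3.44 CPM (exact Poisson 95% interval 2.23 to 5.08, covering counting error only) against 0.879 CPM in the rest of that section. More than 0.5 mm from the area Ghrh was at 1.40, 1.56, 0.708 and 0.618 CPM.

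Agrp, Pomc and Ghrh were also each other's nearest matches over spots. Over the 3 sections with at least 100 UMIs of each, and among 12344 genes, the mean Pearson's r of ln(CPM + 1) across spots was 0.427 between Agrp and Pomc, 0.377 between Agrp and Ghrh and 0.352 between Pomc and Ghrh. Irs4, an insulin receptor substrate, came next for each of them, with r of 0.356, 0.334 and 0.342. These r are across spots of the same libraries that share depth and position, and they serve as a description only. Single spots held several of the peptides at once. A spot of MF replicate 2 with 28233 UMIs held 11 Agrp, 29 Pomc, 35 Cartpt, 32 Ghrh and 19 Gal UMIs.

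Promoter sequences were at hand for 5 of the 7 genes, from RefSeq on GRCm38.p6, and those of Pomc, Ghrh and Trh are shown because Pomc and Ghrh shared a place in the sections and Trh did not. Each line runs from 50 bases before to 10 bases after the start, at chr12:3954895-3954954 for Pomc (plus strand), chr2:157337417-157337476 for the first of 2 Ghrh entries (minus strand) and chr6:92244641-92244700 for Trh (minus strand). Capitals mark the TATA box letters TATAAA, searched on both strands.
Pomc promoter: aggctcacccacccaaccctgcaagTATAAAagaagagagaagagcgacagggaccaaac
Ghrh promoter: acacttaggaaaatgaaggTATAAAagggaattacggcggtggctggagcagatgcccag
Trh promoter: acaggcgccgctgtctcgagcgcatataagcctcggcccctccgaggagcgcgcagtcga
These letters lie on the strand of the gene in 2 of the 6 promoter entries of the members, that of Pomc and the first of Ghrh. The second Ghrh entry and those of Cartpt, Gal and Trh lack them. Only the exact letters were searched, so the near match tataag of the Trh line was not counted. The exact letters lie in 2.82% of all 32851 promoters in the same window (1.25% on the opposite strand). A match is only a run of letters in this window and not a site known to be used.

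Gal was highest in the hypothalamic area in all 4 sections. Gal, at chromosome 19 from 3409915 to 3414544 on the minus strand, encodes galanin, a peptide that in most places inhibits the neurons it reaches. Its UMIs numbered 2384, 1294, 707 and 636, or 26.5, 30.5, 20.2 and 15 CPM over the section. The hypothalamic level was 113, 112, 75.2 and 41.1 CPM, with the MF sections almost equal and both HF sections lower. It came mainly from the 2 medial clusters, at 135, 134, 83.7 and 46.8 CPM, against 32.3, 38.2, 12.3 and 2.13 CPM in the lateral cluster.

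Beyond the hypothalamus, Gal was found in the thalamus and in the dentate gyrus. The thalamic area had 21.2, 17.3, 9.74 and 20.6 CPM and the cortex 3.73, 4.73, 2.14 and 1.32 CPM, so the thalamus lay above the cortex in each of the 4 sections. Within the hippocampal area, the cluster led by C1ql2 and Prox1, genes of dentate granule cells, had 18.8, 24.4, 16.7 and 31.5 CPM, against at most 12.9 CPM in any of the other hippocampal clusters of any section. Here HF replicate 2 had the highest value, opposite to its order in the hypothalamic area.

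Cartpt was the most widely spread of the appetite peptides. Cartpt, at chromosome 13 from 99898489 to 99901091 on the minus strand, encodes the cocaine- and amphetamine-regulated transcript prepropeptide, whose peptides reduce food intake. Its UMIs numbered 7748, 3477, 2369 and 1349, or 86.0, 82.0, 67.7 and 31.7 CPM over the section, and the hypothalamic level was 294, 256, 217 and 50.6 CPM. Both HF sections lay below both MF sections at either scale. The medial clusters had 339, 287, 194 and 53.0 CPM and the lateral cluster 129, 148, 383 and 34.0 CPM, so that in HF replicate 1 alone the lateral cluster stood higher. To reach 50% of Cartpt UMIs took 357, 190, 171 and 216 spots.

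In the cortex Cartpt followed the layers. The cluster led by Lamp5 and Tnnc1 had 99.6, 79.3, 77.6 and 62.5 CPM, while the other 2 cortical clusters, led by Myl4 and by Nxph3, had 47.8, 38.5, 43.6 and 37.9 CPM and 40.2, 29.1, 28.5 and 28.2 CPM. The Lamp5 cluster was the highest of the 3 in each of the 4 sections. The habenular area had 49.2, 59.2, 56.7 and 85.9 CPM, and there HF replicate 2 had the highest level. The ependymal cluster had 281, 344, 132 and 76.4 CPM, and the choroid plexus cluster beside it only 12.3, 13.3, 16.9 and 12.0 CPM. The hippocampus had 19.7, 20.3, 16.2 and 10.9 CPM, the lowest mean of the 12 areas, and the reticular thalamus lay lower in both HF sections, at 15.5 and 8.12 CPM. Over the 12 areas no area differed from the next in order by more than the spread between sections.

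**Figure D3:**
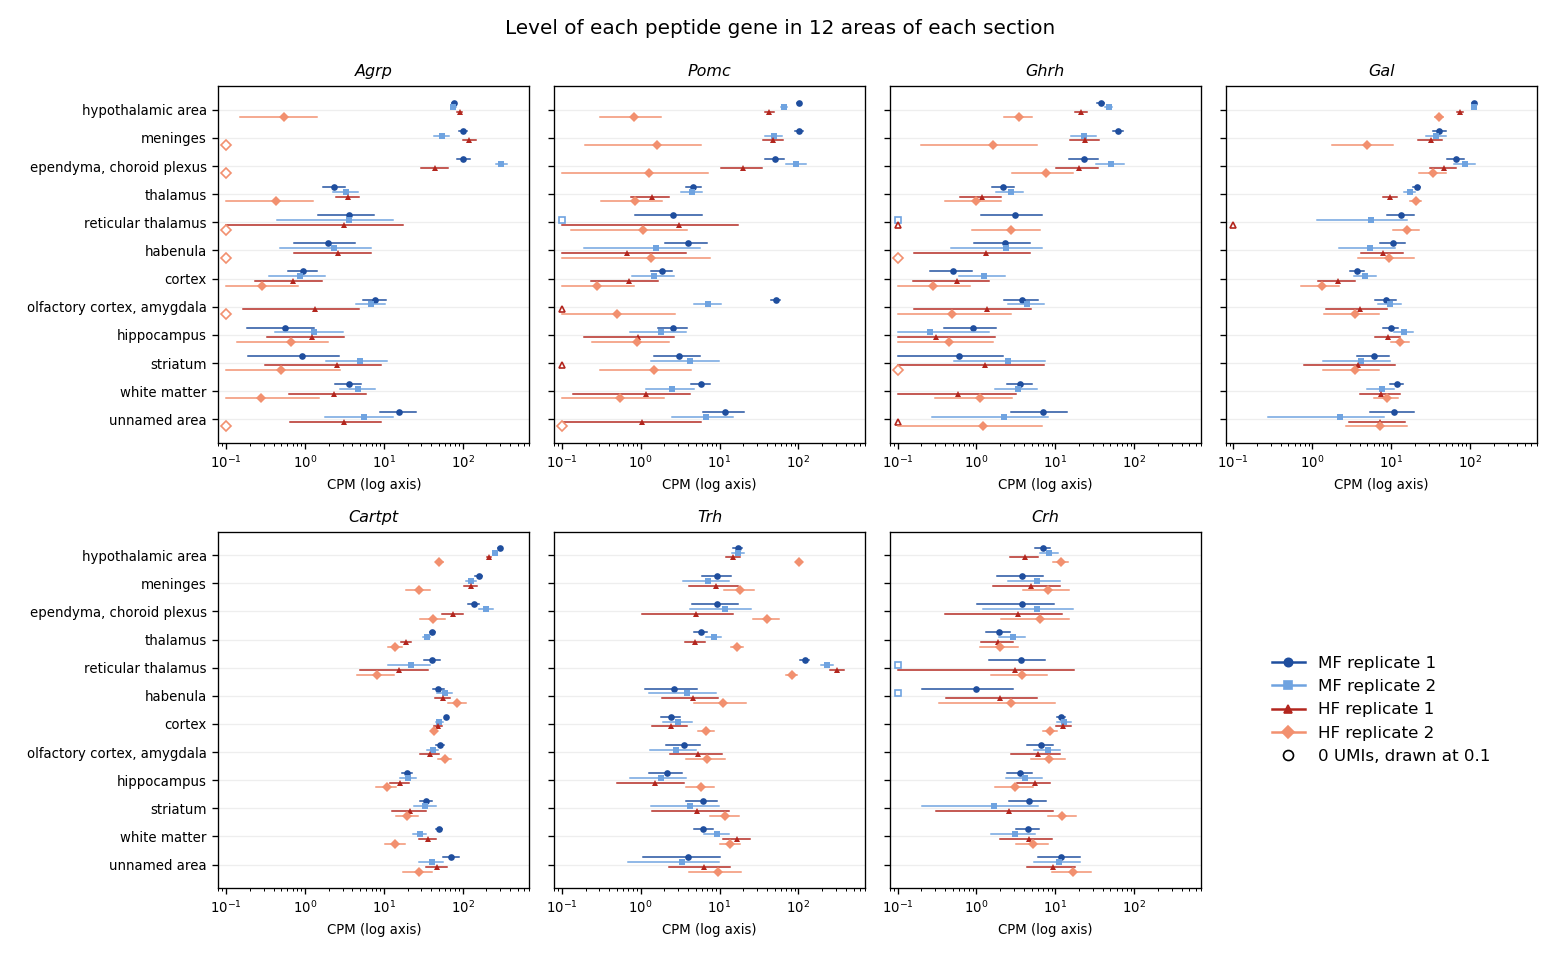
CPM of each gene in 12 areas (log axis), with 1 symbol for each section and bars for the exact Poisson 95% interval, which covers counting error only; open symbols mark 0 UMIs, drawn at 0.1, and intervals that reach lower are cut there. The hypothalamic, meningeal and ependymal areas hold the highest levels of Agrp, Ghrh and Gal in the first 3 sections, the reticular thalamus leads for Trh in these 3 at 121 to 311 CPM, and Crh stays under 17 CPM in each area.

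Trh had its highest level in the reticular thalamus rather than in the hypothalamus in 3 of the 4 sections. Trh, at chromosome 6 from 92242061 to 92244650 on the minus strand, encodes prepro-thyrotropin-releasing hormone, which is cut into several copies of a tripeptide. Its UMIs numbered 765, 445, 330 and 1264, or 8.49, 10.5, 9.43 and 29.7 CPM over the section. HF replicate 2 was the highest, and the other 3 lay within 8.49 to 10.5 CPM.

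The repeated core can be read from the coding sequence. The stretch lies in the last coding exon (chr6:92242857-92243111, minus strand, codons 75 to 159 of 256) and is shown because 3 of the 5 copies of the core fall in it. Capitals mark the 12 bases that code for Gln-His-Pro-Gly, from which the tripeptide is made.
Trh coding stretch: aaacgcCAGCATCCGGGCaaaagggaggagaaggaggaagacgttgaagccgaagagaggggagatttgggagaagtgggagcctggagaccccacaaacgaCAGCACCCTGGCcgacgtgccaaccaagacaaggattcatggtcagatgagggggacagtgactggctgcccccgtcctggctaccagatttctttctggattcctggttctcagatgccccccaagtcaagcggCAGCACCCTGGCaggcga

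The reticular thalamic area, a thin arc led by Six3, Pvalb and Spp1, had Trh at 121, 231, 311 and 82.8 CPM over 48, 39, 35 and 107 spots. In the hypothalamic area the level was 17.0, 17.2, 15 and 102 CPM. In CPM the arc was above the hypothalamus in the first 3 sections, and below it in HF replicate 2. The arc held 30.5%, 28.3%, 30.3% and 12.1% of Trh UMIs from the smaller number of spots, and the hypothalamic area 27.7%, 29.4%, 27.9% and 58.5%. After thinning to 5000 UMIs a spot, 41.7%, 56.4%, 71.4% and 34.6% of reticular spots held a Trh UMI, against 6.83%, 6.07%, 8.46% and 29.0% of hypothalamic spots and 1.31%, 1.14%, 1.2% and 3.34% of cortical spots. On that scale the arc was ahead in HF replicate 2 too, so the order of the 2 areas in that section depended on the measure.

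The higher Trh of HF replicate 2 lay mainly in the hypothalamic area. Spots with at least 3 Trh UMIs numbered 34, 20, 17 and 19 in the reticular area and 14, 9, 1 and 89 in the hypothalamic area. The medial clusters had 19.0, 21.0, 16.1 and 116 CPM and the lateral cluster 9.64, 4.64, 6.84 and 9.57 CPM, so the lateral values did not set HF replicate 2 apart. Away from these areas, Trh was at 2.41 to 6.78 CPM in the cortex and 1.53 to 5.77 CPM in the hippocampus, and HF replicate 2 gave the highest value in both. The genes whose pattern over spots was most like that of Trh were Six3, Nap1l5 and Ecel1, with mean r of 0.199, 0.17 and 0.169 over 4 sections and among 12271 genes.

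Crh was the least hypothalamic of the 7 genes. Crh, at chromosome 3 from 19693401 to 19695396 on the minus strand, encodes corticotropin-releasing hormone, which drives the stress axis from the paraventricular nucleus and is also made by cortical interneurons. Its UMIs numbered 560, 276, 190 and 305, or 6.22, 6.51, 5.43 and 7.18 CPM over the section, and the 4 sections lay closer together than for any of the other members. The hypothalamic area had 6.98, 8.43, 4.07 and 11.8 CPM and the rest of the section 6.09, 6.09, 5.72 and 6.21 CPM. The hypothalamic area was thus above the rest in 3 sections and below it in HF replicate 1, from 87, 64, 25 and 86 UMIs.

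The cortex held more of the Crh UMIs than the hypothalamic area in each section. The cortical area was at 11.8, 12.9, 12.7 and 8.67 CPM with 50.9%, 37.7%, 46.8% and 30.2% of all Crh UMIs, against 15.5%, 23.2%, 13.2% and 28.2% in the hypothalamic area, and its Lamp5 and Tnnc1 cluster was at 16.6, 20.8, 16.2 and 10.1 CPM. The thalamus lay lowest among the larger areas, at 1.92, 2.91, 1.87 and 2.00 CPM. HF replicate 2 differed in the striatal area, with 12.3 CPM against 4.57, 1.68 and 2.56 CPM, and in the lateral hypothalamic cluster, with 21.3 CPM against 11.5, 12.7 and 9.57 CPM. Vip, Psd and Lamp5 had the patterns most like Crh, with mean r of 0.109, 0.0793 and 0.0728. Vip marks a class of cortical interneurons.

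The share of UMIs inside the hypothalamic area put the genes in an order without a test, since the area comes from the same spots. It was 61.5% ± 12.6 for Ghrh, 59.3% ± 8.84 for Gal, 56.6% ± 20.4 for Agrp, 56.1% ± 25.2 for Pomc, 46.6% ± 13.6 for Cartpt, 35.9% ± 15.1 for Trh and 20.0% ± 6.93 for Crh (SD, n = 4). Neighbours in this order differed by less than the larger of their SDs, except for Trh and Crh, whose difference was slightly above either SD. For Agrp the share was 63.8%, 63.3% and 72.7% in the first 3 sections and 26.7% of only 15 UMIs in HF replicate 2.

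To ask whether the mothers' diet was reflected in these genes, UMIs were summed per section and HF was compared with MF by edgeR's quasi-likelihood test. No member was called (Benjamini-Hochberg adjusted p under 0.05 over all genes and a change of at least 1.2-fold), and neither was any of the 14971 genes tested over the whole section, a share of 0%. The same share of 0% was found for the 13378 genes of the hypothalamic area, the 14769 genes of the rest of the section, and the 14642 genes of the test of the difference between both. At an unadjusted p under 0.05, edgeR gave 1020, 878, 1075 and 890 genes in these 4 tests, of which 3, 3, 4 and 2 were members. At the same adjusted threshold and fold change as the edgeR calls, DESeq2 called 22, 6, 19 and 1 genes. With 2 sections against 2, an exact permutation test of a single value cannot go below p = 0.333 (two-sided).

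Pomc, Cartpt, Ghrh and Gal were lower in both HF sections than in both MF sections. This held for 4 of the 7 members over the whole section, in the hypothalamic area and outside it, against 17.9%, 16.9% and 18.1% of all genes tested. No member was higher in both HF sections, as were 21.8%, 21.2% and 20.8% of all genes. The median log2 fold change of the 7 members was -0.77, -0.98 and -0.61, beside a median of 0.00 over all genes tested. These genes share sections and, in part, spots, so they are not independent of each other. HF replicate 2 was among these HF sections and in these medians, and in it section level and diet cannot be told apart. The spots outside the hypothalamic area include those next to it, where most outside Pomc UMIs of the other sections lay. The comparisons inside and outside the area are therefore not separate from each other.

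In the hypothalamic area, the MF and HF means were 113 ± 0.574 and 58.1 ± 24.1 CPM for Gal (SD, n = 2 each), with a log2 fold change of -0.98 (SE 0.23, edgeR adjusted p = 0.753). Ghrh had 42.4 ± 6.92 and 12.4 ± 12.6 CPM, with -1.83 (SE 0.55, adjusted p = 0.753). Pomc had 83.6 ± 24.6 and 21.9 ± 29.8 CPM, with -2.01 (SE 0.88, adjusted p = 0.760). None of these differences passed the threshold. Cartpt had 275 ± 26.9 and 134 ± 118 CPM, with -1.07 (SE 0.52, adjusted p = 0.763). Without the lateral patch of MF replicate 1 the Pomc value was -1.59 (SE 0.88, adjusted p = 0.766). DESeq2 called Gal in the hypothalamic area (adjusted p = 0.0262) and over the whole section (adjusted p = 0.0204), and Cartpt outside the hypothalamic area (adjusted p = 0.0412). With no filter on low counts, edgeR called 101 genes of the hypothalamic area, with Pomc, Cartpt, Ghrh, Gal and Trh among them at fold changes that differed by at most 0.00476 on the log2 scale. The calls of these genes so depended on the filter while their sizes did not.

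Agrp, Trh and Crh gave no ordered difference between the diets. Agrp had 77.2 ± 1.06 CPM in MF and 45.9 ± 64.2 CPM in HF, with -0.80 (SE 1.03, edgeR adjusted p = 0.877) and the MF values between the HF values. Trh had 17.1 ± 0.166 and 58.4 ± 61.4 CPM, with 1.78 (SE 0.70, adjusted p = 0.753), and again the 2 HF sections lay on either side. Crh had 7.70 ± 1.02 and 7.96 ± 5.50 CPM, with 0.07 (SE 0.43, adjusted p = 0.984). For Agrp and Trh HF replicate 1 lay near the MF values and HF replicate 2 far from them, while for Crh the HF sections lay below and above both MF sections.

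Leaving out HF replicate 2 left 1 HF section, whose spread is then assumed to be like that of the MF pair. The hypothalamic log2 fold changes became -0.60 for Gal, -1.0 for Ghrh, -1.0 for Pomc and -0.37 for Cartpt. Agrp turned to 0.22 and Trh to -0.21, so both changed sign. Crh was at -0.92. That setting compares a single HF section with 2 MF sections, so its calls of these genes are not given. HF replicate 1 also had the fewest UMIs of the 4, and the part of depth and of section level in these values was not tested. Leaving out HF replicate 1 instead gave hypothalamic log2 fold changes of -7.10 for Agrp and 2.56 for Trh. For these genes the 2 HF sections thus lay further apart than the 2 MF sections.

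**Figure D4:**
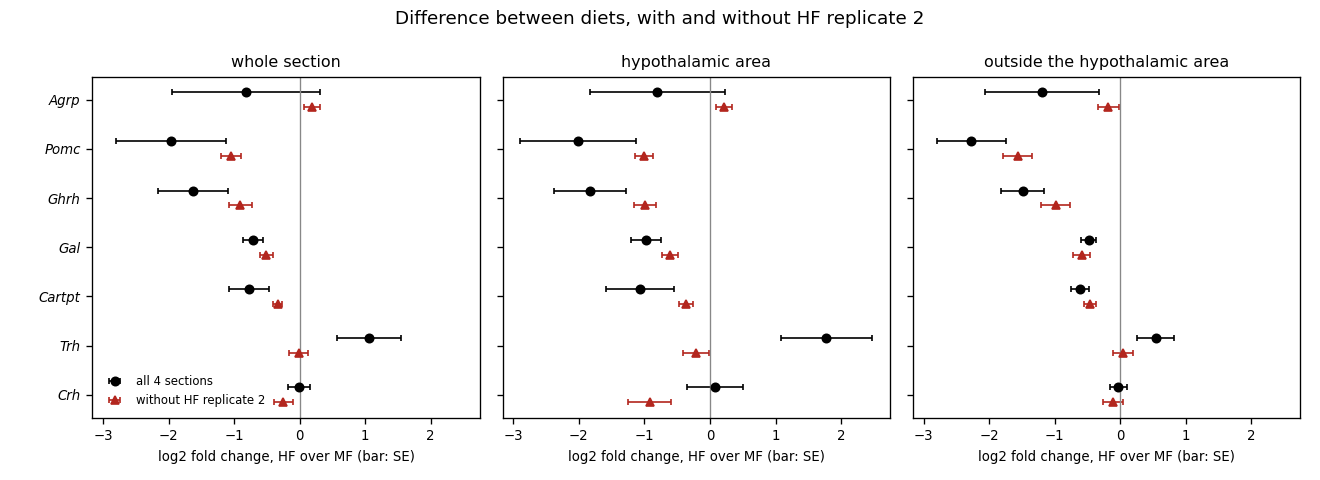
Log2 fold change of HF over MF (bars: SE from edgeR) for each gene over the whole section, in the hypothalamic area and outside it, with all 4 sections (black circles) and without HF replicate 2 (red triangles). Pomc, Ghrh, Gal and Cartpt lie below 0 in both settings, while Agrp and Trh change sign when HF replicate 2 is left out of the whole-section and hypothalamic comparisons.

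Outside the hypothalamic area, the log2 fold change was -2.27 (SE 0.52) for Pomc, -1.49 (SE 0.33) for Ghrh, -0.61 (SE 0.14) for Cartpt and -0.49 (SE 0.11) for Gal, each with an edgeR adjusted p of 0.647. Of the Pomc UMIs outside the area, 639 of 815, 154 of 226, 71 of 87 and 9 of 25 lay within 0.5 mm of it. In MF replicate 1 some of them belonged to the lateral patch. Farther away Pomc was at 2.75, 2.81, 0.708 and 0.618 CPM. With no filter on low counts edgeR called Pomc (adjusted p = 0.00864), Ghrh (adjusted p = 0.0245) and Cartpt (adjusted p = 0.0498) there. The count of all genes called in that setting is given with the alternatives below. The difference of the diet effect between the hypothalamic area and the rest was not called for any member. It was largest for Trh, at 1.05 (SE 0.43, adjusted p = 0.819), and was -0.54 (SE 0.23, adjusted p = 0.819) for Gal. A stronger hypothalamic effect was therefore not shown for either gene.

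Around these peptides, 55 further genes had been listed as relatives, receptors, processing enzymes and regulators of the same neurons, and 53 had a row. In the hypothalamic area 48 were tested and 0 were called by edgeR, 7 had an unadjusted p under 0.05, 16 were higher and 32 lower in HF, and their median log2 fold change was -0.18 beside 0.00 over all genes. The regulators had the lowest median of the 4 groups, at -0.68 over 10 genes, and the processing enzymes lay near 0, at -0.01 over 7 genes. Tbx3 and Sim1, both among these regulators, also served as markers of the level of a section. All fold changes of this paragraph include HF replicate 2 and are not given without it. The smallest p belonged to Tac2, the gene of neurokinin B, at -0.99 (SE 0.17, adjusted p = 0.753), and next came Pdyn, the prodynorphin gene, at -1.23 (SE 0.31, adjusted p = 0.753). Sim1, a transcription factor of the paraventricular nucleus, was higher, at 1.75 (SE 0.55, adjusted p = 0.753), and its level over the section was 0.888, 1.34, 1.40 and 6.40 CPM. HF replicate 2 alone thus carried the Sim1 difference.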

How the data were processed

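Per the labels and the study's methods, the authors mapped probe reads to mm10 with Space Ranger (matrix header 2.0.0) and deposited whole-number UMI counts per gene and spot with the positions of the spots. The deposited tables also hold Moran's I, a score of spatial clustering for each gene and section. The study's floor for a spot was applied, 500 UMIs and 250 detected genes. Spots were clustered on ln(CPM + 1) of 2000 variable genes (30 principal components, 20 neighbours, Leiden resolution 1, leidenalg 0.10.2), leaving out 78 listed genes, and clusters were named from marker lists when at least 3 markers led them. No doublet caller was run, since spots hold several cells. A total of 2472 array positions lay under tissue in all 4 sections. UMIs were summed per section and area and tested with edgeR 4.0.16 (TMM, filterByExpr, quasi-likelihood, R 4.3.3), with DESeq2 1.42.0 as an alternative. The test was tested on simulated data. The members and all lists were chosen with earlier results of these data known. The named genes are the 7 members, the 3 genes most like each over spots and the 3 listed genes with the smallest p. Same-numbered sections are not paired by the labels, and their deviations correlated at -0.165, -0.164 and -0.112. Alternatives were normalization, filter, thinning to 5000 UMIs, Leiden resolutions of 0.5 and 2, a replicate block and each section left out.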

Additional observations from a re-analysis of the deposited data

Results flagged for a closer look

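A set of 4 section values was checked for 1 value standing far from the other 3 in 28 cases. Such a value was found in 4 cases, all in HF replicate 2. Chance alone gives about 1 in 20 for independent sets. These sets overlap, and all cases but that of Agrp are of Trh, so their number cannot be set against that rate. The Agrp level in the hypothalamic area was 0.551 CPM against 76.5 to 91.3 CPM. The Trh level was 29.7 CPM over the whole section against 8.49 to 10.5 CPM, and 102 CPM in the hypothalamic area against 15 to 17.2 CPM. The share of Trh UMIs in the hypothalamic area was 58.5% against 27.7% to 29.4%. HF replicate 2 is also the section with Avp at 469 CPM and Hcrt at 0.235 CPM, and level of section and diet cannot be told apart in it.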

How the results depend on the processing

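Each count of genes called was recomputed under the alternatives, in the order whole section, hypothalamic area, rest of the section and the difference of the diet effect between both; edgeR called 0 in each with all 4 sections. DESeq2 called 22, 6, 19 and 1, edgeR with no filter on low counts 5, 101, 29 and 29, and sums thinned to 5000 UMIs a spot gave 1 over the whole section and 7 for the difference. Leaving out 1 section gave 0 to 1166, 0 to 827, 0 to 1321 and 0 to 349, with the high counts when either HF section was left out. A replicate block gave 0, 0, 5 and 0; with it Pomc outside the hypothalamic area was called at -2.34 (edgeR adjusted p = 0.0323), Crh in the hypothalamic area was -0.089 and the difference for Crh -0.041. Crossed replicate numbers, a pairing added after seeing the data, gave 11, 0 and 48 calls. The cause of these changes was not tested.

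Of the members, Crh had no stable direction: after thinning it was 0.073 over the whole section, -0.30 in the hypothalamic area and 0.18 outside, and its difference was -0.48, or -0.051 with DESeq2. DESeq2 also turned the difference for Agrp to -0.74 and for Pomc to -1.17, and limiting the rest to spots over 0.5 mm away, added after seeing the data, gave -0.15 for Pomc. Without 1 section, Crh ranged from -0.25 to 0.18 over the whole section, -0.92 to 0.64 in the hypothalamic area and -0.11 to 0.032 outside. Agrp ranged from -5.74 to 0.19 and -7.10 to 0.22, and Trh from -0.013 to 1.67 and -0.21 to 2.56, over the whole section and in the hypothalamic area. The difference ranged from -2.45 to 0.51 for Agrp, -3.08 to 0.52 for Pomc, -1.65 to 0.073 for Cartpt, -1.40 to 0.012 for Ghrh, -0.28 to 1.64 for Trh and -0.81 to 0.62 for Crh. Pomc, Cartpt, Ghrh and Gal stayed lower in HF over the whole section, in the hypothalamic area and outside it under all alternatives run. The mean share of UMIs in the hypothalamic area was 43.9% to 52.0% under all of them. With 2 sections a diet, small differences were not detectable, and genes of under 100 UMIs in a section, such as Agrp, Pomc and Ghrh in HF replicate 2, rest on few counts.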

Other observations

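Moran's I, which is near 0 for a gene scattered at random over spots, was 0.485, 0.536, 0.612 and 0.006 for Agrp in the deposited tables. This put Agrp at rank 145 of 18235, 48 of 17196, 18 of 16731 and 10595 of 18100 genes. Trh ran the other way, with 0.189, 0.243, 0.279 and 0.388, and reached rank 142 in HF replicate 2 against 1200 in MF replicate 1. Crh stayed at 0.025 to 0.059 in all 4 sections.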
